A study of Mus musculus with 2 samples.

Results

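The sites described here are stretches of open chromatin at microRNA (miRNA) genes. They were peaks within 2 kb of a GENCODE M21 gene of type miRNA and more than 1 kb from every annotated start of a protein-coding gene. Replicate 1 held 470 such peaks among 115072 peaks in all, and replicate 2 held 432 among 95711. They made up 0.552% and 0.641% of all peaks that lay more than 1 kb from a coding start, here called distal peaks. In replicate 1, 247 peaks belonged to miRNA genes inside protein-coding gene bodies on either strand and 223 to miRNA genes outside them. In replicate 2 the numbers were 220 and 212. Inside and outside describe the nearest miRNA gene here and below, not the peak itself. In replicates 1 and 2, 15 and 19 inside peaks were intergenic, and 4 and 1 outside peaks overlapped an exon of a coding gene. A further 490 and 485 peaks within 2 kb of a miRNA gene were left out because they lay within 1 kb of a coding start.

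The data were DNase-seq, in which DNase I cuts accessible DNA and the cut ends are sequenced. The tissue was a layer of the hippocampus, not named further, from male B6CASTF1/J mice aged 14 days. These mice are the F1 offspring of C57BL/6 and CAST/EiJ parents. A single group of 2 biological replicates was measured, with no treatment named. Each label speaks of 3 males, and both labels carry 1 donor identifier, so the spread between the replicates may be partly technical. The authors' value per peak is used below as a height on an arbitrary scale, because no unit or normalization is stated for it. With 1 group and 2 replicates no test between conditions was possible. Every comparison below is a description, and exact 95% binomial intervals cover counting error only. The tissue was bulk: fewer cells with an open site and a less open site in each cell cannot be told apart.

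A miRNA begins as a longer transcript that folds into a hairpin, from which Drosha and then Dicer cut a mature RNA. Its seed, bases 2 to 8, pairs with target mRNAs and sets which of them are repressed. A hairpin can lie in an intron of a protein-coding gene and share its promoter, in a long noncoding RNA (lncRNA), or in a transcript of its own, so open DNA at the hairpin and the start of its transcript can be far apart.

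The mature sequences of brain and broadly expressed miRNAs with an open site in both replicates are shown first, because they are the products of the genes described. Capitals mark the seed, and the sequences are from RefSeq (GRCm38.p6).
mmu-miR-132-3p: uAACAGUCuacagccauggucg
mmu-miR-212-3p: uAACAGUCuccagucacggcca
mmu-miR-9-5p: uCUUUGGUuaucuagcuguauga
mmu-miR-129-5p: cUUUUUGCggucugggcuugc
mmu-miR-137-3p: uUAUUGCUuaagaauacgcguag
mmu-miR-128-3p: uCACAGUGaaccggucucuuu
mmu-miR-7b-5p: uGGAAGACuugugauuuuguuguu
mmu-let-7i-5p: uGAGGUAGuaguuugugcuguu
mmu-miR-125b-5p: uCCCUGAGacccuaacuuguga
mmu-miR-17-5p: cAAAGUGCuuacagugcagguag
The first pair share their seed, and their hairpins lie side by side on chromosome 11 under a single site. The other sequences shown each have a seed of their own. By symbol, 1032 of the 2202 miRNA genes had a sequence in the RefSeq table.

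Among the sites at neuronal miRNA genes, the highest in both replicates was the one over Mir212 and Mir132. Both miRNAs are induced by neuronal activity through the factor CREB. The window below is the right-hand 300 bases of the site, chr11:75173521-75173820 of GRCm38, plus strand, which is also the strand of the miRNAs. Capitals mark, from left to right, the letters of the REST motif (on the minus strand), the full CRE (TGACGTCA, the palindromic site of CREB and related factors) and an Egr motif (GCGTGGGCG, minus strand).
Mir212 and Mir132: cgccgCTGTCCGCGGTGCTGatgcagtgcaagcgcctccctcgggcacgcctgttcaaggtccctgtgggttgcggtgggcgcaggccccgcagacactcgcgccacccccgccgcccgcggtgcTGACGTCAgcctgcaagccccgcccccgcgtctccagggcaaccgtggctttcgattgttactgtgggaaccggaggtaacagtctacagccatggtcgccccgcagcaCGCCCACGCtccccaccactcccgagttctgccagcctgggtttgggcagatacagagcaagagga
The window runs through the Mir132 hairpin. The mature miR-132-3p sequence lies in it at chr11:75173723-75173744, written there as DNA. Footprints, as the authors list them at a false discovery rate of 0.01, are short stretches that the enzyme cut less. A footprint overlapped the REST and Egr letters in both replicates and the CRE letters in neither.

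The full CRE stood in 7 of the 267 sites found in both replicates. The 7 windows are aligned below on the CRE (in capitals) with 16 bases on each side, plus strand of GRCm38, because sites at genes of miR-132, miR-212, miR-124 and miR-9 hold it.
CRE at Mir212: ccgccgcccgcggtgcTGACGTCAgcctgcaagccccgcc
CRE at Mir9-3: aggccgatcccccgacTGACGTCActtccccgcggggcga
CRE at Mir3093: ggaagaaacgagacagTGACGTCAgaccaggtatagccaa
CRE at Mir124a-3: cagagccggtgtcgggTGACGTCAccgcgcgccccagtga
CRE at Mir124a-2: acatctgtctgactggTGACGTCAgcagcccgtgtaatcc
CRE at Gm47305: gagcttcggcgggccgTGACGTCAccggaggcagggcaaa
CRE at Gm22877: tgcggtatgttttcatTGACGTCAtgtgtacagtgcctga
The windows lie at chr11:75173630-75173669, chr7:79504880-79504919, chr3:88214375-88214414, chr2:180893064-180893103, chr3:17793824-17793863, chr12:69361510-69361549 and chr14:103649090-103649129. The site named for Mir3093 is also within 2 kb of Mir9-1. A footprint overlapped the CRE in both replicates at Mir9-3, Mir3093, Mir124a-3, Mir124a-2 and Gm47305, and in neither at Mir212 and Gm22877. Of the 7 sites, 6 belonged to miRNA genes outside coding genes, and Gm22877 lies inside one. Of the 3 genes each of miR-124 and miR-9, the sites of Mir124a-1 and Mir9-2 held none. The search here covered the whole site, whose CRE can lie outside the 300 bases at a peak centre that the shares below refer to. This whole-site search was not run over all distal sites, so the count of 7 has no background share beside it.

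Most miRNA genes had no such site. A gene is called open here if it had a member peak in both replicates and the 2 peaks overlapped by at least 1 bp. Of 2202 miRNA genes, 236 (10.7%) were open, with an interval of 9.46 to 12.1%. Measured the same way, 7.23% of 1507 snoRNA genes, 8.53% of 1383 snRNA genes and 37.1% of 5854 lincRNA genes were open. The last are much longer genes and offer more sequence for a peak. A further 196 miRNA genes had a peak only at a coding promoter, 1611 had no peak within 2 kb in either replicate, 89 had a member peak in replicate 1 only and 63 in replicate 2 only. The remaining 7 had member peaks in both that did not overlap.

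Outside coding genes, 115 of 916 miRNA genes were open (12.6%, interval 10.5 to 14.9%), and inside them 121 of 1286 (9.41%, interval 7.87 to 11.1%). For snoRNA genes the shares were 7.99% outside and 5.89% inside, and for snRNA genes 9.04% and 7.72%. The order of the miRNA shares depended on the starts left out: with only the 5′ end of each coding gene model counted as a start, 12.8% outside and 13.8% inside were open. Within the outside group, 46 of 186 genes in a lncRNA gene were open (24.7%, interval 18.7 to 31.6%), against 69 of 730 in none (9.45%, interval 7.43 to 11.8%). These intervals do not overlap. Among genes inside a coding gene, 8.25% of 946 on the strand of their host were open and 13.4% of 307 on the opposite strand, with intervals of 6.57 to 10.2% and 9.76 to 17.7% that overlap. The other 33 had hosts on both strands. Genes with a Mir symbol were open in 13.3% of 1174 cases, and those under other symbols, mostly Gm numbers, in 7.78% of 1028. Genes in a cluster share peaks, so they are not independent, and whether intervals overlap is no test of a difference.

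**Figure D1:**
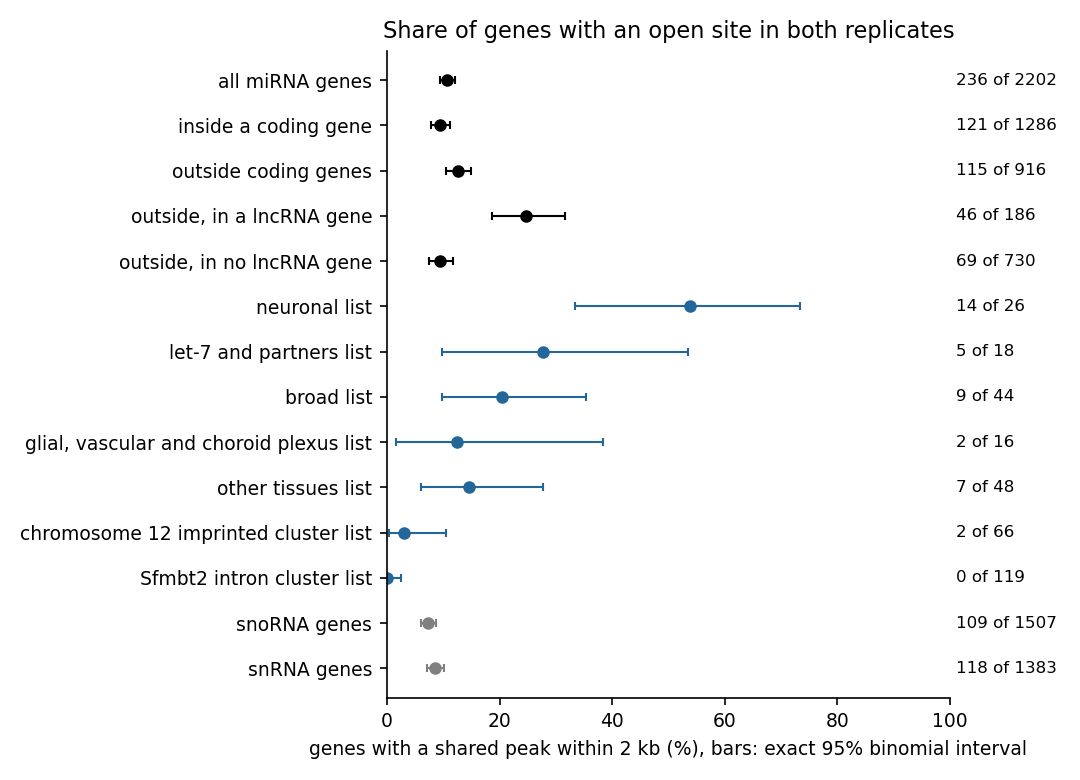
The horizontal axis is the percentage of genes with a peak in both replicates within 2 kb, and each row is a group of genes, with counts at the right. Bars are exact 95% binomial intervals (for 0 counts, the upper limit a count of 0 allows), and the neuronal list lies highest, at 14 of 26 genes.

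Member peaks were higher than distal peaks in general. The median value was 0.665 against 0.523 in replicate 1 and 0.766 against 0.628 in replicate 2, ratios of 1.27 and 1.22. The ratio was larger for peaks outside coding genes (1.36 and 1.299) than inside (1.149 and 1.10) in both replicates. In replicate 1, 292 member peaks (62.1%) were overlapped by a member peak of the other replicate, beside 59.3% of all distal peaks. In replicate 2 it was 287 (66.4%), beside 75.2%, so the members lay above the background in one replicate and below it in the other. Joining overlapping peaks, with the highest peak of each replicate as its value, gave 267 sites found in both replicates, 178 in replicate 1 only and 145 in replicate 2 only. The replicate-only sites were weak, with medians of 0.438 and 0.473, whereas the shared sites had medians of 0.976 and 1.04. Of the sites in 1 replicate only, 170 and 136 met no peak of the other replicate at all.

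Heights at the shared sites followed each other closely. Spearman's rho across the 267 sites was 0.937, a description over sites of the same 2 libraries. The value was higher in replicate 2 at 194 sites, with a median ratio of replicate 2 to replicate 1 of 1.17 (1.08 over all shared distal pairs).

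**Figure D2:**
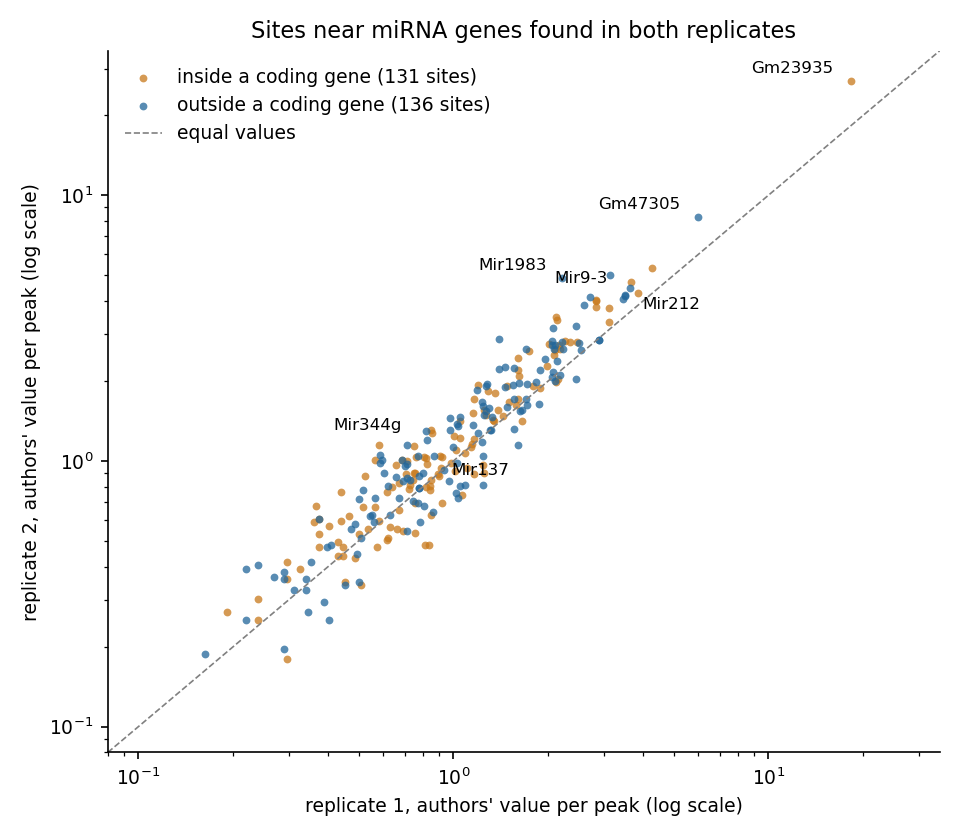
Each point is 1 of 267 shared sites, with the authors' value in replicate 1 on the horizontal and in replicate 2 on the vertical axis, both on log scales. Points follow the line of equal values, with 194 of them above it, and Gm23935 stands apart at the top at 18.3 and 26.9.

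The sites were richer in CpG and more often near lncRNA starts than distal peaks in general, the latter mainly outside coding genes. The observed over expected CpG ratio in 300 bp at the peak centre had a median of 0.316 and 0.325 in the 2 replicates, against 0.245 and 0.262. For sites outside coding genes it was 0.375 and 0.357. A lncRNA start lay within 1 kb of 14.7% and 14.6% of member peaks, against 3.46% and 3.76% of distal peaks. These peaks at lncRNA starts had median values of 0.849 and 1.04, and member peaks away from such starts had 0.622 and 0.701. The latter still stood above the 0.516 and 0.620 of distal peaks away from lncRNA starts. At least 1 footprint lay in 72.8% and 73.6% of member peaks, close to the 73.7% and 72.0% of distal peaks.

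Peaks at genes outside coding genes lay more often before the hairpin than after it. Leaving aside those over the gene, 117 of replicate 1 were upstream and 72 downstream (61.9% upstream, interval 54.6 to 68.9%). In replicate 2, 104 were upstream and 68 downstream (60.5%, interval 52.7 to 67.8%). At genes inside coding genes, 46.5% and 47.7% were upstream, with intervals that include equal shares. Several peaks can belong to 1 gene or cluster, so peaks are not independent and all these intervals may be too narrow. A peak lay over the miRNA gene itself for 67 and 72 of the 236 open genes (28.4% and 30.5%). The authors also list stretches whose cut rate passed a false discovery rate of 0.05, and these reached into 39.8% and 37.3% of the open genes, and 33.1% had one in both replicates. Among the genes that were not open, 6.21% and 6.92% had one. Peaks and stretches come from the same libraries, so a difference of this kind is built into the grouping and is no separate evidence.

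**Figure D3:**
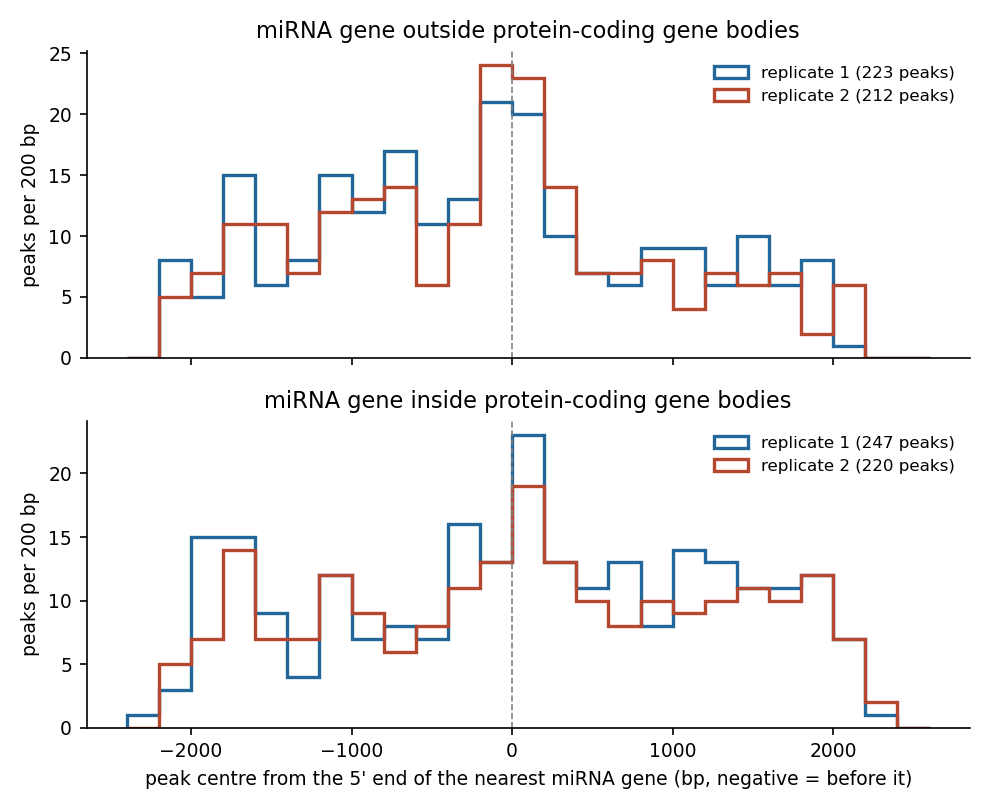
Numbers of member peaks per 200 bp by the distance of the peak centre from the 5′ end of the nearest miRNA gene, for genes outside (top) and inside (bottom) coding genes, with 1 line per replicate. Outside coding genes both lines are highest around the 5′ end and hold more peaks before the gene than after it.

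The letters under the peaks were searched for 14 short motifs on both strands, in 300 bp at each peak centre. The full CRE stood in 8 member peaks of replicate 1 (1.70%) and 6 of replicate 2 (1.39%), all at genes outside coding genes, against 0.367% and 0.436% of all distal peaks. The shorter TGACG, which also matches within every full CRE on both strands, was at 16.2% and 16.7%, against 13.03% and 13.7%. The REST motif, bound by a repressor of neuronal genes, stood in 3 and 2 member peaks (0.638% and 0.463%), against 0.0764% and 0.0934%. Windows of neighbouring peaks can hold the same letters, so all shares here count peaks, not separate motifs. Over the whole length of the 267 shared sites, 7 held the CRE, 6 of them at genes outside coding genes, and 2 held the REST letters. The GC box GGGCGG was at 21.1% and 20.1%, against 9.18% and 10.9%. The neural E-box CAGATG was rarer than in distal peaks (27.2% and 28.5% against 34.4% and 33.2%), as was the CTCF motif (7.87% in both against 10.3% and 10.8%). The E-box CAGCTG (22.6% and 19.7% against 26.2% and 26.7%), AP-1 (TGANTCA, 9.15% and 6.94% against 11.0% and 10.2%) and the homeodomain letters TAATTA (4.89% and 4.86% against 6.96% and 5.98%) were also at lower shares. MEF2, in 15 and 14 member peaks, lay near the share of distal peaks (3.19% and 3.24% against 4.07% and 3.74%). Egr stood in 3 and 3 member peaks (0.638% and 0.694%), against 0.154% and 0.188%. RFX was in 1 (0.213%) and 0 member peaks, against 0.408% and 0.366%. The 0 of 432 in replicate 2 allows up to 0.694%, so no difference was detectable there, and the 1 peak of replicate 1 is too few to read. The NFI motif was in 0 of 470 and 0 of 432, which allows up to 0.638% and 0.694%, above the 0.123% and 0.131% of distal peaks, so no difference was detectable. A match is a match of letters only. Median GC content was 52.8% and 54.0% in member peaks and 49.3% and 50.7% in distal peaks, and its part in these shares was not tested.

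Among the lists of miRNA families, the neuronal list had the highest share of open genes. In that list 14 of 26 genes were open (53.8%, interval 33.4 to 73.4%), beside 10.7% of all miRNA genes. Some of these genes share a site, and by locus 12 of 24 were open. Most of the open genes lie outside coding genes in a lncRNA gene, a group of which 24.7% were open in general. All genes of miR-124, miR-9 and miR-129 were open (3 of 3 each), as were Mir132, Mir212, Mir137, 1 of 2 miR-128 genes and 1 of 5 miR-7 genes. Mir128-1, Mir138-1 and Mir138-2 had no member peak. No gene of miR-138, miR-218, miR-134, miR-153 or miR-384 was open. The 26 shared sites nearest a gene of this list had medians of 1.05 and 1.39, beside 0.976 and 1.04 at all 267. Of the 26 sites, 22 were higher in replicate 2, beside 194 of the 267.

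At Mir212 and Mir132 the site over the hairpins had a value of 3.63 in replicate 1 and 4.48 in replicate 2 (mean 4.06 ± 0.601, SD, n = 2). Replicate 1 lists it as 2 peaks, of 2.14 and 3.63, and replicate 2 as 1. Footprints numbered 7 and 13 within it. A second shared site 707 bp before Mir212 had values of 1.05 and 1.47. Both sites lay within 1 kb of a start of the host lncRNA 1700016P03Rik, and in both replicates the one over the hairpins was the higher.

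The genes of miR-9, a miRNA of neural progenitors and young neurons, showed their highest sites beside the hairpin rather than over it. At Mir9-3 the highest site lay 243 bp before the hairpin and had values of 3.50 and 4.21, with 3 and 6 footprints. The replicate 1 peak is printed next, chr7:79504781-79505000 of GRCm38, plus strand, with the CRE in capitals.
Mir9-3: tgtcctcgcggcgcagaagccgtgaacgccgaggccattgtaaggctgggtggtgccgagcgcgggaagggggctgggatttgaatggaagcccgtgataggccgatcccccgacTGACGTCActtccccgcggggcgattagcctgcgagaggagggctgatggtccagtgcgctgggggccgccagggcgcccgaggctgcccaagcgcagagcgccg
The other 3 shared sites of Mir9-3 were lower, between 0.714 and 1.31. At Mir9-1 the shared site, 954 bp away from it, had 2.07 and 3.18, the widest gap between replicates of the 3 genes. At Mir9-2 the highest site, 735 bp past the hairpin, had 2.23 and 2.63.

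The miR-124 genes, which give one of the most abundant miRNAs of neurons, differed in height among themselves. Mir124a-3 had 5 shared sites. Its highest were 2.89 and 2.86 at the site 693 bp past the hairpin and 2.90 and 2.85 at the site with the CRE before it. Mir124a-1 reached 1.24 and 1.61, and Mir124a-2 0.820 and 1.296. In both replicates the 3 genes stood in this order. The REST letters occurred a second time, at Mir124a-3, in the site 173 bp past the hairpin, whose values were 0.976 and 1.45. The 2 REST windows are given with 12 bases on each side, plus strand of GRCm38, at chr11:75173514-75173552 and chr2:180894527-180894565, with the motif in capitals.
REST letters at Mir212: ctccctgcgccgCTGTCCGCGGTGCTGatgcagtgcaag
REST letters at Mir124a-3: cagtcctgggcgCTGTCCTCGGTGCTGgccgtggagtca
A footprint overlapped these letters at Mir124a-3 in replicate 2 only.

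The other open genes of the neuronal list are given by their highest site. Mir129-1 reached 1.70 and 2.65 at a site 1549 bp from the gene, and Mir129-2, which overlaps Mir129b, 1.87 and 1.64 over the gene. Mir7b reached 1.27 and 1.92. Mir128-2, an intronic gene, reached 1.05 and 1.41, and Mir137, a miRNA of synaptic genes, 0.870 and 1.04, with a further site of 0.714 and 1.1495. The site of Mir128-2 reached over the gene, and so did the joined site of Mir137, through its replicate 2 peak. Taking the highest value of each open gene, Mir137 was the lowest of the list in replicate 2, and Mir124a-2 in replicate 1.

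**Figure D4:**
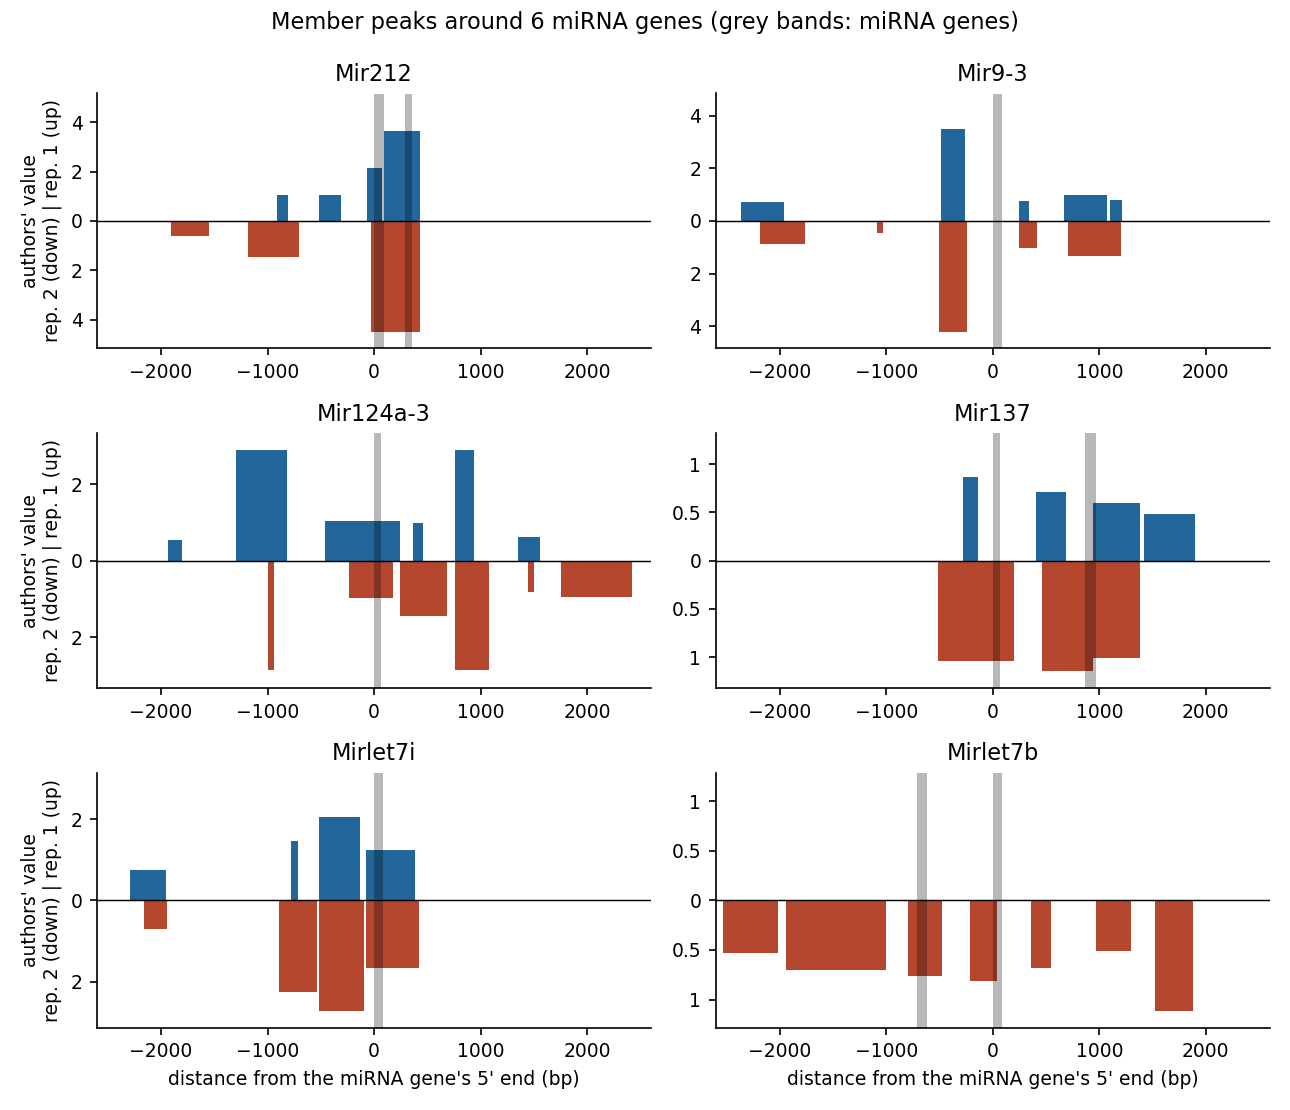
Member peaks around 6 miRNA genes, drawn by distance from the 5′ end of the gene (bp), with the authors' value upward for replicate 1 (blue) and downward for replicate 2 (red), and grey bands for miRNA genes. Peaks of both replicates face each other at 5 loci, and at Mirlet7b peaks appear in replicate 2 only.

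Members of the let-7 family, which rise as cells differentiate, shared 1 list with their cluster partners miR-98, miR-99, miR-100 and miR-125, and 5 of its 18 genes were open (27.8%, interval 9.69 to 53.5%). Mirlet7i reached 2.05 and 2.73 at a site 96 bp from the gene and had 4 shared sites. Mir125b-1 had 6 shared sites, the highest at 2.18 and 2.11, and Mir125b-2 reached 2.11 and 2.73 at a site 1592 bp away. The site over Mir99a, which is also the nearest to Mirlet7c-1, was lower at 0.693 and 0.546. The cluster of Mirlet7d, Mirlet7f-1 and Mirlet7a-1 had no member peak. Mir99b, Mirlet7e and Mir125a shared a peak of 0.856 in replicate 1 only.

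In the list of broadly expressed families, 9 of 44 genes were open (20.5%, interval 9.80 to 35.3%), and they formed 5 loci. Mir17 and Mir92-1 of the miR-17-92 cluster, known for driving proliferation, shared a site of 2.21 and 2.80, which lay 1150 bp before Mir17. Mir23a, Mir27a and Mir24-2 shared a site of 1.95 and 2.43, and Mir26a-1 had one of 1.34 and 1.43. Mir22 (0.856 and 1.27) and the pair Mir34b and Mir34c (1.01 and 0.913) were lower. Mir26a-2, Mir30a and Mir30c-2 had no member peak, and 5 genes of the list had a peak only at a coding promoter.

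The list of glial, vascular and choroid plexus miRNAs had 2 of 16 open genes (12.5%, interval 1.55 to 38.3%). These were Mir143 and Mir145a, miRNAs of smooth muscle, with a shared site of 1.28 and 1.95. Mir219a-2 and Mir219b, of the oligodendrocyte family miR-219, had peaks of up to 0.827 in replicate 1 only. Mir126a, Mir126b and Mir145b had none. Of the list for other tissues, 7 of 48 genes were open (14.6%, interval 6.07 to 27.8%), at 3 loci. They were Mir375 of pancreatic islets (0.799 and 0.905), Mir1a-2, Mir1b and Mir133a-1 of muscle (0.509 and 0.342) and Mir293, Mir294 and Mir295 of embryonic stem cells (0.813 and 0.481). Each of these values was below the median of shared sites in both replicates. Mir1a-1, Mir133a-2 and Mir133b had no member peak. The intervals of the last 4 lists overlap each other. The neuronal interval overlaps those of the let-7, broad and glial lists but not that of the list for other tissues. Genes of a cluster share peaks, so these intervals may be too narrow, and their overlap is no test of a difference. By locus, 12 of 24 were open in the neuronal list and 3 of 23 in the list for other tissues.

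The 2 largest clusters were nearly or wholly without shared sites. In the imprinted cluster of chromosome 12, taken from Meg3 to 300 kb past it, 2 of 66 genes were open (3.03%, interval 0.369 to 10.5%): Mir3072 (2.11 and 2.01) and Mir1906-1 (1.61 and 1.97). In the cluster within an intron of Sfmbt2, 0 of 119 genes were open, which allows a share of up to 2.52% (3 counts of 119), and none had a member peak in either replicate. Copies in that cluster are alike, and how the alignment treated reads that match several copies is not given in the sources used here.

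The Mir344 genes were chosen after their values were seen, because the family had the highest share of open genes among the 10 miRNA numbers with at least 5 genes. Of the 13 genes, which lie within 402 kb of chromosome 7, 10 were open (76.9%). At 9 of them a shared site, taken over the joined extent of both replicates' peaks, reached over the gene itself. A peak of replicate 1 alone lay over 7 of the 13 genes, and a peak of replicate 2 alone over 8. The next numbers in order of open genes were miR-466 with 3 of 28, and miR-7 and miR-3473 with 1 each. Mature sequences are shown for 6 members, with the seed in capitals, because most of their seeds differ.
mmu-miR-344-3p: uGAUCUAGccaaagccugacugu
mmu-miR-344c-3p: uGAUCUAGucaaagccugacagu
mmu-miR-344b-3p: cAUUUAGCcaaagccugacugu
mmu-miR-344d-3p: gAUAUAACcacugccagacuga
mmu-miR-344g-3p: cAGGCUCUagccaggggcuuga
mmu-miR-344f-3p: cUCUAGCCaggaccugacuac
Only miR-344 and miR-344c share a seed among these 6. The 9 sites had values of 0.290 to 0.863 in replicate 1 and 0.196 to 1.20 in replicate 2, with medians of 0.403 and 0.359. Both medians lie below those of all shared sites. Site centres lay between 133 bp before and 72 bp after the 5′ end of the hairpin gene. The highest mean was at Mir344g with 0.827 and 1.20, although Mir344-2 was above it in replicate 1 (0.863 and 0.644). The lowest mean was at Mir344d-1 with 0.290 and 0.196. Replicate 2 was higher at 2 of the 9 sites, against 194 of 267 overall. Over 300 bases centred on the gene, pairs of the 9 copies were 62.7% to 88.3% identical (median 71.2%, 36 pairs). Their CpG ratio was at most 0.176, whereas the Mir212 site had 0.879. Of the 3 genes that were not open, Mir344h-1 and Mir344h-2 had peaks of 0.285 and 0.261 in replicate 2 only, and Mir344e had none.
The replicate 1 peak at Mir344g is given as the site with the highest mean of the family, chr7:61982221-61982500 of GRCm38, plus strand, all in lower case. The gene itself is on the minus strand.
Mir344g: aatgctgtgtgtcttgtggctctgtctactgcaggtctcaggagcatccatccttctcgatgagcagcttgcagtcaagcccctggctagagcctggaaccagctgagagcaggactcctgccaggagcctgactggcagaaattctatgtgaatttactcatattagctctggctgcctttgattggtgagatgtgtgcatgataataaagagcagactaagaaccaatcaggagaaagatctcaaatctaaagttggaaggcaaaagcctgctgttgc

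**Figure D5:**
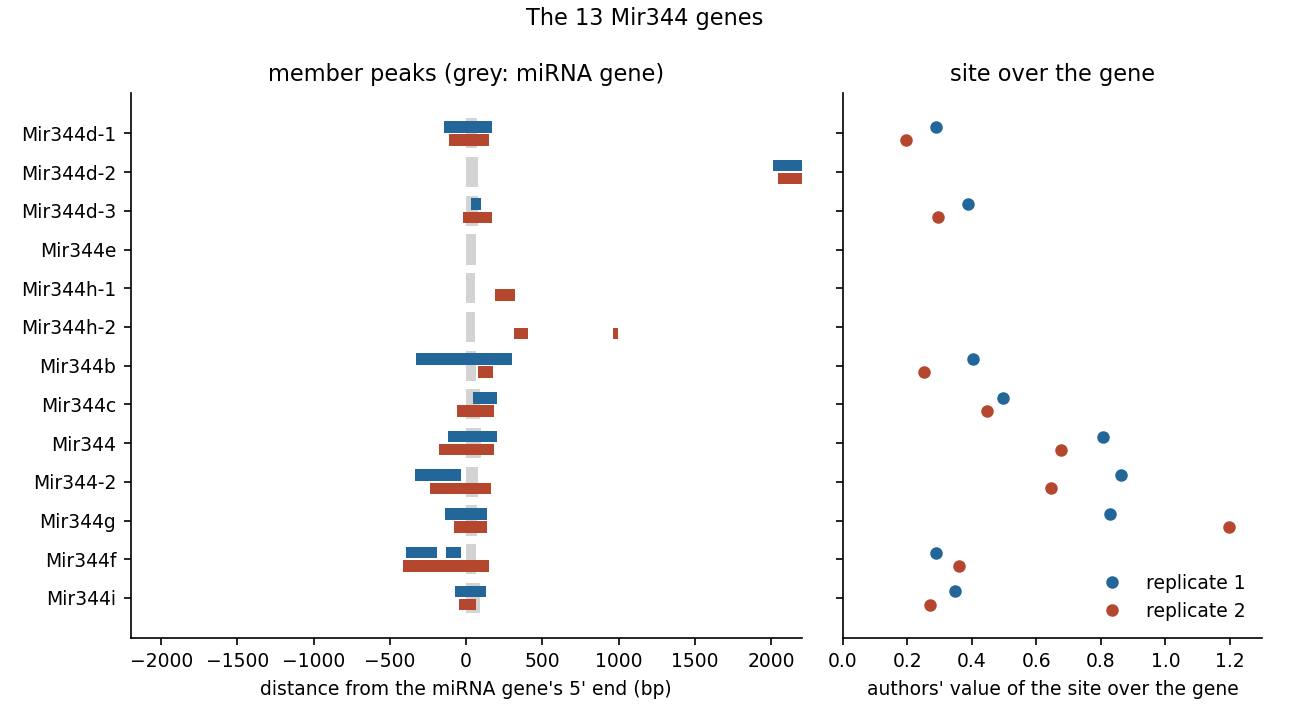
Left, member peaks of replicate 1 (blue) and replicate 2 (red) around the 13 Mir344 genes by distance from the 5′ end of each gene (bp), with the gene in grey. Right, the authors' value of the shared site over the gene, drawn for the 9 genes that have one, among them Mir344g at 0.827 and 1.20.

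The highest site of all was at a gene known only by a Gm number, in sequence that recurs in the genome. Gm23935, within an intron of Zc3h7a and on the opposite strand, had 18.3 and 26.9 (mean 22.6 ± 6.03, SD, n = 2). Of the 31-base words in that site, 95.8% occur again on chromosomes 1 to 19, X or Y of GRCm38. The part of this repetition in the height was not tested. Whether the sequence is that of a ribosomal RNA was not settled, so the value may not describe a miRNA gene. The replicate 1 peak is chr16:11144171-11144320, plus strand.
Gm23935: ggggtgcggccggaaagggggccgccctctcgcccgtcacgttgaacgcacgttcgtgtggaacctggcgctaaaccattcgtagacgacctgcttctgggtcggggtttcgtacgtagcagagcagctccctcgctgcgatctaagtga
Words repeated elsewhere made up at least 50% of the words at only 7 of the 267 shared sites, and 219 sites (82.0%) held no repeated word. Gm24270 in Peak1, at 2.13 and 3.41, was another of the 7.

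At miRNA genes outside coding genes, the top sites were partly those of other small RNA genes. Gm47305 lies beside Rn7s2, a gene of the signal recognition particle RNA, and its site had 5.97 and 8.28. The site 1581 bp before Mir5103 is at the tRNA gene n-TEttc1 and had 3.15 and 5.03. Mir1983 overlaps the tRNA gene n-TItat14 and had 2.21 and 4.87, the widest gap between replicates of the top 10. The gene n-TStga1, a tRNA gene that GENCODE lists as a miRNA, had 2.72 and 4.15 at its own site and 4 more shared sites around it. Its replicate 1 peak is printed because it holds the tRNA gene with an exact B box (in capitals), the inner promoter of RNA polymerase III, at chr13:23518081-23518300, plus strand.
n-TStga1: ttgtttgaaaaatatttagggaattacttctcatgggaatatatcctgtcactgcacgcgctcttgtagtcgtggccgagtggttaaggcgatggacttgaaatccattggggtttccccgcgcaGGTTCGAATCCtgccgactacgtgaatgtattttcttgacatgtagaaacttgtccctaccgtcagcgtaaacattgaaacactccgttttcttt
The B box stood in 4 and 3 member peaks (0.851% and 0.694%), against 0.110% and 0.138% of distal peaks. In all, 16 member peaks of replicate 1 and 17 of replicate 2 lay within 500 bp of a tRNA, snRNA, snoRNA, rRNA or other small RNA gene. That was 3.40% and 3.94% of the members, against 0.640% and 0.694% of distal peaks. Their median values of 1.44 and 1.598 were above the 0.658 and 0.758 of the remaining members.

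The other sites among the top 10 of miRNA genes outside coding genes were at Mir8111 (3.51 and 4.18), Gm22065 (3.44 and 4.08) and Gm25195 (2.45 and 3.23), besides Mir212, Mir9-3 and Mir124a-3. The site of Mir8111 itself overlapped an exon of a coding gene. For miRNA genes inside coding genes, the top sites after Gm23935 were near Mir6921 in Srebf1, the gene of a regulator of lipid synthesis (4.26 and 5.32), and Mir6376 in Rpn1 (3.85 and 4.27). The site near Mir6376 was itself intergenic. Next came Mir6991 in 2700081O15Rik (3.11 and 3.77), Gm25595 in Gna15 (2.83 and 4.04) and Mir7655 in Mllt10 (2.83 and 4.003). Mir6976 in Srf, a gene of an activity-responsive transcription factor, had 2.84 and 3.78, and Mir6769b in Unc13a, a gene of synaptic vesicle priming, 3.11 and 3.33. Mir1191b in Nfic had 2.47 and 2.80. The sites of Mir6921, Mir7655 and Mir6976 lay 1100, 1064 and 1108 bp from a coding start, just past the limit of 1 kb. Whether these sites act on the host gene or the miRNA was not tested.

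The strongest sites with a member peak in 1 replicate only were lower. In replicate 1 they were at Gm22118 (1.92), Mir3093 (1.51) and Mir6546 (1.16), and in replicate 2 at Mir6402 (1.21), Mir1901 (1.12) and Mirlet7b (1.12). The peak at Gm22118 lies exactly 2000 bp from the gene, at the limit of the rule. The sites at Gm22118, Mir6402 and Mir1901 were open in the other replicate too: a peak there that the rule left out overlapped them, with values of 2.91, 0.997 and 0.806. No peak of the other replicate overlapped those at Mir3093, Mir6546 and Mirlet7b. The peak at Mir3093 borders a site open in both replicates, however. It ends at chr3:88214304, and the shared site of Mir3093 and Mir9-1 (2.07 and 3.18) starts at chr3:88214321.

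Some loci carried several peaks in 1 replicate and none in the other, and these were picked after their values were seen. A run is at least 4 consecutive peaks of 1 replicate, each within 2 kb of the last, that overlap no peak of the other. There were 293 runs in replicate 1 and 376 in replicate 2, of which 5 and 6 covered a miRNA gene. In the imprinted cluster, 15 peaks of replicate 2 ran over 9900 bp and 10 miRNA genes from Mir379 to Mir329, with values of 0.0897 to 0.351. At Mirlet7c-2 and Mirlet7b, 11 peaks of replicate 2 had values of 0.514 to 1.52. At Mir1190, 16 peaks of replicate 2 had 0.139 to 0.669. Replicate 1 had no peak and no footprint in these 3 stretches, and replicate 2 had 10, 23 and 14 footprints in them. The reverse held at Mir7-2, where 10 peaks of replicate 1 had values of 0.368 to 0.969 and 20 footprints, and replicate 2 had neither. Without the member peaks in runs, 65.2% and 73.2% of member peaks were shared. Peaks in runs are unshared by definition, so leaving them out could only raise these shares. What sets these stretches apart between the replicates was not tested.

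Peaks lay on both sides of each limit of the rule. In replicate 1, the peaks nearest 2 kb inside the limit were at Gm22118 (2000 bp, 1.92) and Mir125b-2 (1992 bp, 0.926), and just outside at Mir129-2 (2009 bp, 0.615) and Mir3062 (2012 bp, 0.445). In replicate 2 they were Mir3089 (1989 bp, 2.39) and Mir466f-4 (1988 bp, 0.497) inside, and Mir330 (2004 bp, 1.04) and Gm22991 (2009 bp, 0.375) outside. For the coding start, peaks just beyond 1 kb were at Mir6948 (1004 bp, 0.453) and Mir6392 (1004 bp, 0.849) in replicate 1 and Mir7662 (1005 bp, 1.07) and Mir1900 (1013 bp, 1.88) in replicate 2. Those just within it were at Gm22721 (994 bp, 0.269), Gm24574 (995 bp, 0.474), Mir760 (990 bp, 0.440) and Mir8116 (1000 bp, 1.12), the first pair in replicate 1 and the second in replicate 2.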

How the data were processed

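The authors deposited, per replicate, 2 peak lists with a signal value per peak, footprints, and stretches of significant cutting, all on mm10 (GRCm38), per the deposited descriptions. The authors' p-value columns are false discovery rates (0.01 for every footprint, under 0.05 for the stretches). Each file was derived from the alignment of its own library, per the deposited descriptions, with aligner, peak caller, depth and signal normalization not given in the sources used here. In each replicate the longer peak list was used, on chromosomes 1 to 19, X and Y. Distances were taken between nearest edges with pandas 2.3.3 and bedtools 2.31.1 against GENCODE M21 (2202 miRNA and 21938 protein-coding genes), and sequences came from GRCm38.p6 with pysam 0.24.0. Overlap and distance steps were tested on simulated intervals, with identical results in 4 of 4 checks. The 1005 hairpins of the RefSeq table were identical to the genome at their coordinates.

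Members, lists, motifs and rules were chosen with earlier results of these data known. Genes were named by rule: the 10 loci outside and 10 inside coding genes with the highest shared site (miRNA genes within 10 kb form a locus), every listed miRNA with a shared site, up to 3 per list without a member peak, the 3 highest loci with a member peak in each replicate only, and the members nearest each limit. Mir344, the runs and Gm22877 were added after seeing values.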

Additional observations from a re-analysis of the deposited data

How the results depend on the processing

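No paired analysis was possible because the series holds a single group of 2 replicates and no result comes from a test. Shares of open genes follow the distances chosen. The order below is all miRNA genes, inside and outside coding genes. They were 6.58, 5.37 and 8.30% within 1 kb of the gene, 20.8, 19.8 and 22.3% within 5 kb, 12.6, 12.4 and 12.9% for peaks over 500 bp from a coding start, 8.17, 5.75 and 11.6% over 2.5 kb from one, and 13.4, 13.8 and 12.8% with only gene model 5′ ends as starts, where the order of inside and outside turned. They were 6.86, 4.90 and 9.61% with the shorter peak list, 8.63, 6.53 and 11.6% with an overlap of 50% of both peaks, 13.3, 10.9 and 18.4% for Mir symbols only and 7.31, 6.14 and 8.95% for values at or above the median of the list. With 1 replicate alone they were 13.9 to 15.1%, 12.3 to 14.2% and 16.2 to 16.3%. The outside share alone also moved by more than the spread between replicates with hosts on the same strand only (12.8%), with clusters as the unit (12.8%) and without peaks near other small RNA genes (11.9%). That spread, the SD of the 2 single-replicate shares, was only 0.0772 points outside, against 1.37 inside. Small shifts of the outside share therefore count as moved. The outside share was above the inside share in 14 of 15 settings. Sharing of member peaks, 64.3% on average, became 44.9% with the 50% overlap, 80.4% for values at or above the median and 69.2% without runs. The last of these could only rise, because peaks in runs are unshared by definition. The ratio of medians, 1.25 on average, became 1.28 within 1 kb, 1.13 with the shorter list, 1.31 for Mir symbols, 1.14 for values at or above the median and 1.305 without runs, and lay at 1.22 to 1.27 with 1 replicate alone. Leaving out peaks near small RNA genes and leaving out runs were chosen after seeing the data. Without depth or counts in these files, a missing peak cannot be told apart from one below the caller's limit.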
